A study of Mus musculus with 2 samples.

Results

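The Fc receptor genes of small-intestinal macrophages are described here: Fcgr1, Fcgr3, Fcgr4, Fcgr2b, Fcer1g, Fcgrt and Fcrls, picked by name as 7 of the 27998 genes in the count tables. All 7 were found in both libraries. The study compared macrophages of wild-type mice (C57BL/6J, male, from Janvier) with those of CCR2-/- mice (JAX strain 004999, bred in-house; age and, for these mice, sex are not stated in the sources used here). Ccr2 encodes the chemokine receptor by which monocytes leave the bone marrow and enter tissue. In each genotype the intestines of 3 to 4 mice were pooled, and live CD45+ CD11b+ MHCII+ CD64+ cells, negative for CD3, TCRb, B220, SiglecF, Ly6C and Ly6G, were sorted and profiled by droplet 3′ single-cell RNA sequencing. CD64 is the protein made from Fcgr1, so the cells were selected on the product of a gene described here, and Ly6C-positive monocytes were gated out.

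There was 1 library per genotype, so no test between genotypes was possible, and genotype, breeder and library cannot be told apart. The wild-type library was split over 2 lanes, which are technical repeats of 1 pool and serve as a yardstick. After filtering, 3016 wild-type cells (2109 in lane 1 and 907 in lane 2) and 2612 knockout cells were left, with medians of 6129 and 2439 unique molecular identifiers (UMIs) per cell. The lanes shared 5 cell barcodes and the libraries shared 6. All 8 macrophage markers were detected in both libraries, at a summed 15239 counts per 1000000 UMIs (CPM) in the wild type and 12755 CPM in the knockout. Ccr2 stood at 331 CPM in the wild type and at 6.88 CPM (50 UMIs) in the knockout, where the sources used here do not say whether the counted 3′ end lies in the deleted part. Monocyte markers, Ccr2 included, summed to 709 and 193 CPM, endothelial markers to 62.0 and 229 CPM, and fibroblast markers to 44.2 and 339 CPM.

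Fc receptors bind the constant part of antibodies. Fcgr1 (FcγRI), Fcgr3 (FcγRIII) and Fcgr4 (FcγRIV) encode activating receptors for IgG, which signal through the γ chain encoded by Fcer1g, whose ITAM motif recruits the kinase Syk and starts uptake of antibody-coated particles. Fcgr2b encodes the inhibitory receptor FcγRIIb, whose ITIM motif recruits the phosphatase SHIP-1 (Inpp5d), and the balance of both kinds sets the threshold at which IgG activates a macrophage. Fcgrt encodes the heavy chain of the neonatal Fc receptor, which pairs with β2-microglobulin and returns IgG from endosomes, and Fcrls encodes an Fc receptor-like protein of the mouse, best known as a transcript of microglia.

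On GRCm38 the genes lie in few places. Fcgr2b (chr1:170958617-170976547, minus strand), Fcgr4 (chr1:171018920-171029761, plus strand), Fcgr3 (chr1:171051174-171064935, minus strand) and Fcer1g (chr1:171229572-171234365, minus strand) lie on chromosome 1. Fcgr1 (chr3:96282909-96293969) and Fcrls (chr3:87250758-87263738) lie on chromosome 3, and Fcgrt (chr7:45092990-45103851) on chromosome 7, all on the minus strand. All 7 are annotated as protein-coding. The last 500 bases of each gene's coding transcripts, where 3′ reads fall, were compared in 50-base words with the whole transcripts of the other members. For 6 of the 7 genes no word was found elsewhere, and for Fcgr2b 33 of 1467 words were, outside the last 500 bases of the other members' coding transcripts. An annotated antisense gene, Gm38204, overlaps Fcgr2b and had 0 UMIs in the wild type and 1 in the knockout. Another, Gm45669, overlaps Fcgrt and was not analysed here.

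The 250 bases before the start of the activating receptors and of the inhibitory receptor are shown, as the main IgG receptors described here. The sequences and starts are RefSeq's, build GRCm38.p6, 5′ to 3′ in the direction of the gene. These starts can differ from the gene spans given above, and the windows of Fcgr3 and Fcgr2b lie inside those spans. They were searched on both strands for GAGGAA, a core bound by the macrophage factor PU.1 and other ETS factors, for TTCNNNGAA, the letters of a gamma-activated site bound by STAT dimers, and for an interferon-stimulated response element, read as GAAA, 2 bases of any kind and GAAA again. Capitals mark the matches, which did not overlap each other, and GAGGAA on the other strand reads TTCCTC. The windows are chr3:96293970-96294219 (Fcgr1), chr1:171018676-171018925 (Fcgr4), chr1:171059404-171059653 (Fcgr3, the first of its 2 listed starts) and chr1:170976072-170976321 (Fcgr2b).
Fcgr1: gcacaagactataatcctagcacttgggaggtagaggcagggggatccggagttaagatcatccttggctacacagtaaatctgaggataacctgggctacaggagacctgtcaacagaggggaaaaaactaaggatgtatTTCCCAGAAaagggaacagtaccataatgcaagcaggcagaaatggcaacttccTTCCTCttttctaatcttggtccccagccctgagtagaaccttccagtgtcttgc
Fcgr4: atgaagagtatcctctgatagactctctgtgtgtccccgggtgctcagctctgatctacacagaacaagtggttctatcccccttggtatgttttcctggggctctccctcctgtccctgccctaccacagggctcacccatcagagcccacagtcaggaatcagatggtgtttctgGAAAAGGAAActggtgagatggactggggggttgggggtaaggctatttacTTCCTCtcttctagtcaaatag
Fcgr3: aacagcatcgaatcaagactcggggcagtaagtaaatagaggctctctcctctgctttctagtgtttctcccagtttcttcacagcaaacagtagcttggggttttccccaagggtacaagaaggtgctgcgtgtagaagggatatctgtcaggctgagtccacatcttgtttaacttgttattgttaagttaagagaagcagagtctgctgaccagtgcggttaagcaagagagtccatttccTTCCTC
Fcgr2b: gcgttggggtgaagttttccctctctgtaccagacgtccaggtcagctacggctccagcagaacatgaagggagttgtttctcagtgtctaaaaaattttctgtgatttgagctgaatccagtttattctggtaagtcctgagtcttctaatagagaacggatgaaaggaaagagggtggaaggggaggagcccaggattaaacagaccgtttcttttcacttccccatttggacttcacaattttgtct

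GAGGAA was found in the windows of Fcgr1 (beginning 55 bases before the start), Fcgr4 (22 bases), Fcgr3 (6 bases) and Fcrls (144 bases), and 23.3% of all 32851 such RefSeq windows held it. TTCNNNGAA was found in the window of Fcgr1 alone among the 7 members, 109 bases before the start, and in 7.02% of all windows. The interferon-stimulated response element was found in the window of Fcgr4 alone among the members, 73 bases before the start, and in 2.98% of all windows. No match to any of the 3 was found in the windows of Fcgr2b, Fcer1g and Fcgrt. A match describes letters only and shows no binding, and the motifs were chosen after these windows and the values by cell state had been seen.

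The levels below are CPM, the UMIs of a gene summed over the cells kept and divided by all UMIs of those cells. Each UMI counts 1 transcript end, so levels were not divided by length. The ratio between the libraries nevertheless moved with transcript length, as given below, so comparisons between different genes are approximate. Intervals are exact 95% Poisson intervals and, like all intervals here, cover counting error only.

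The activating receptors were abundant in both genotypes, and of them Fcgr1 differed most. Fcgr1 stood at 195 CPM in lane 1 and 222 CPM in lane 2 of the wild type (203 CPM together, interval 197 to 209) and at 101 CPM in the knockout (94.0 to 109). The knockout value lay below both lanes, and the ratio was -0.996 on the log2(CPM + 1) scale, just inside a 2-fold difference. Fcgr4 stood at 470 and 544 CPM in the lanes (492 CPM together) and at 372 CPM in the knockout, a log2 ratio of -0.40. Fcgr3 stood at 429 and 547 CPM in the lanes (463 CPM together) and at 371 CPM in the knockout, a log2 ratio of -0.32. The Fcgr3 value of the knockout lay below both lanes, with log2 ratios of -0.21 and -0.56 against them, and the lanes differed from each other by 0.35.

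Fcgr1 varied with the UMIs of the cell, and the part of sequencing depth in this was not tested. In wild-type cells with 1500 to under 2500, 2500 to under 4000 and 4000 to under 8000 UMIs it stood at 151, 129 and 213 CPM, and in knockout cells of the same classes at 70.1, 118 and 115 CPM. In cells with 2000 to 4000 UMIs of both libraries (713 wild-type and 1051 knockout cells), the log2 ratio of Fcgr1 was -0.32, against -0.996 over all cells, and that of Fcgr3 was -0.01. The Fcgr1 intervals overlapped in the middle class (112 to 148 and 104 to 132 CPM) and were apart in the other 2, and 1024 wild-type but 19 knockout cells had 8000 or more UMIs.

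The inhibitory receptor was also lower in the knockout. Fcgr2b stood at 289 and 295 CPM in the wild-type lanes (291 CPM together, 284 to 299) and at 253 CPM (242 to 265) in the knockout. Its log2 ratio was -0.20, below both lanes, which differed by 0.03. Over all cells this was a smaller gap than that of any activating receptor, but in cells with 2000 to 4000 UMIs the order turned, with -0.46 for Fcgr2b against -0.32, -0.18 and -0.01 for Fcgr1, Fcgr4 and Fcgr3.

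The shared γ chain showed the widest gap of the 7 members. Fcer1g stood at 3333 CPM in lane 1 and 3802 CPM in lane 2 (3472 CPM together, 3446 to 3497), and at 1597 CPM (1568 to 1626) in the knockout. The knockout was 2.17-fold lower, a log2 ratio of -1.12, with a gap of 0.19 between the lanes. In wild-type cells with 1500 to under 2500, 2500 to under 4000 and 4000 to under 8000 UMIs Fcer1g stood at 3137, 3452 and 3679 CPM, and in knockout cells at 1258, 1609 and 1940 CPM. In cells with 2000 to 4000 UMIs the log2 ratio was -1.15, about as wide as over all cells. Across the classes above, however, the gap narrowed as cells got deeper. At 4000 to under 8000 UMIs it was less than 2-fold. In cells with 8000 or more UMIs it was wider again, at 3375 CPM in the wild type and 1239 CPM in 19 knockout cells. Tyrobp, the other main ITAM adaptor of macrophages, whose longest annotated transcript is 597 bases, stood at 2522 and 1438 CPM, a log2 ratio of -0.81.

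Fcgrt and Fcrls, the members outside the IgG uptake machinery, were the 2 that were higher in the knockout. Fcgrt stood at 88.4 and 103 CPM in the lanes (92.8 CPM together) and at 131 CPM (123 to 140) in the knockout, a log2 ratio of 0.49. B2m, its partner chain, ran the other way, with 4918 CPM in the wild type and 2946 CPM in the knockout. Endothelial and fibroblast markers were higher in the knockout library too. In cells with at least 2 macrophage markers and under 3 UMIs each of epithelial, endothelial, fibroblast and lymphoid markers, the Fcgrt ratio was 0.50. Fcrls stood at 61.1 and 59.3 CPM in the lanes and at 72.0 CPM (65.9 to 78.4) in the knockout, a log2 ratio of 0.25. The Fcrls ratio was -0.13 when cells with a Ccr2 or Plac8 UMI were left out, so its direction depended on which cells were counted.

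**Figure D1:**
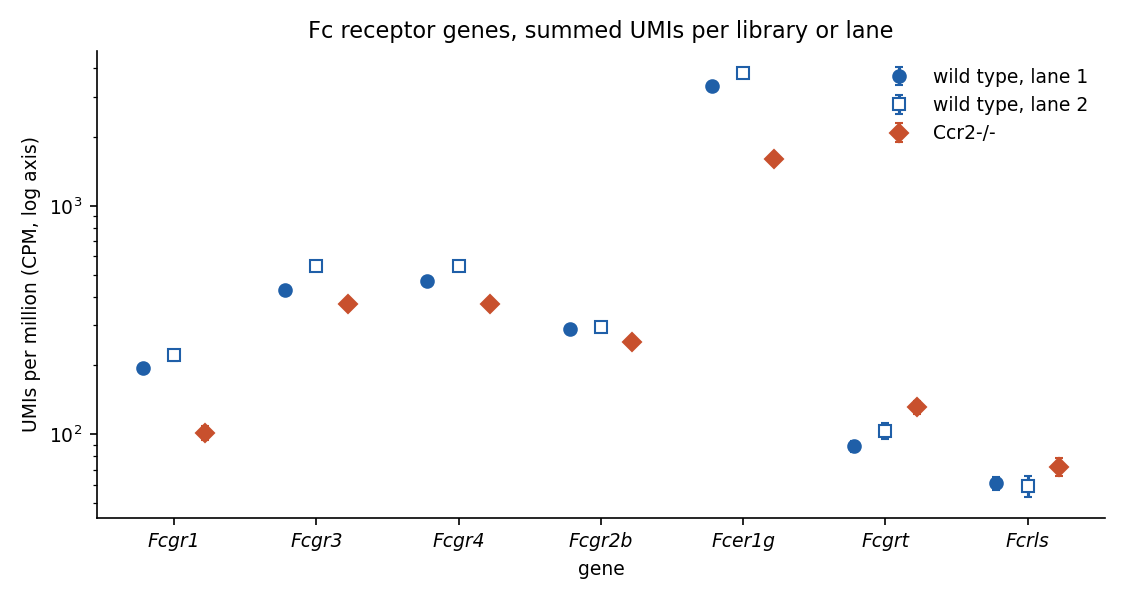
Level of each Fc receptor gene in CPM (log axis) in the 2 wild-type lanes (blue) and the knockout library (orange), with exact 95% Poisson intervals, most of them smaller than the symbols. Fcer1g and Fcgr1 stand furthest below both wild-type lanes in the knockout (Fcer1g 1597 against 3333 and 3802 CPM), Fcgrt stands above them, and the lanes lie close together.

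The order of the members was nearly the same in both genotypes. In the wild type it ran Fcer1g, Fcgr4, Fcgr3, Fcgr2b, Fcgr1, Fcgrt and Fcrls. Fcgr4 and Fcgr3 did not differ beyond counting error in lane 2 (544 and 547 CPM) or in the knockout (372 and 371 CPM). In the knockout Fcgrt (131 CPM) stood above Fcgr1 (101 CPM), the reverse of the wild type.

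Of the 7 members, 1 (Fcer1g) was at least 2-fold lower in the knockout and 0 were at least 2-fold higher, where 3.12% of the 7401 genes with a mean of at least 10 CPM were at least 2-fold lower and 9.04% at least 2-fold higher. In all, 5 members were lower and 2 higher, where 37.7% of the 7401 genes were lower. The members' median log2 ratio was -0.32, against 0.18 over all genes. Centring on the median of all genes would move every ratio down by 0.18 and leaves each member's direction as it is. Between the lanes, 0 of 7 members differed 2-fold, against 0.0405% of genes higher and 0.838% lower in lane 2. The direction of each member was the same against either lane.

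Transcript length moved with these ratios. Across all genes, the median log2 ratio was -0.42 for genes whose longest annotated transcript is under 700 bases, -0.46 for 700 to under 1500 bases, -0.09 for 1500 to under 2500 bases, 0.20 for 2500 to under 4000 bases and 0.42 for 4000 bases or more. Ribosomal protein transcripts made up 19.0% of UMIs in the wild type and 11.9% in the knockout. Relative to its own length class Fcer1g (683 bases) stood at -0.70 and Fcgr1 (2589 bases) at -1.20, and 8.02% and 2.23% of genes of their classes had a lower ratio. Fcgr2b (3544 bases) stood at -0.40 relative to its class, and Fcgrt (1770 bases) and Fcrls (2273 bases) at 0.58 and 0.33. Fcgr3 (1347 bases) and Fcgr4 (1256 bases) changed direction, to 0.14 and 0.06, when set against genes of like length. B2m and Tyrobp, which are not members, stood at -0.28 and -0.39 relative to their classes, where 29.2% and 27.2% of genes had a lower ratio. The part of transcript length, or of whatever made the ratio follow it, in the members' differences was not tested.

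**Figure D2:**
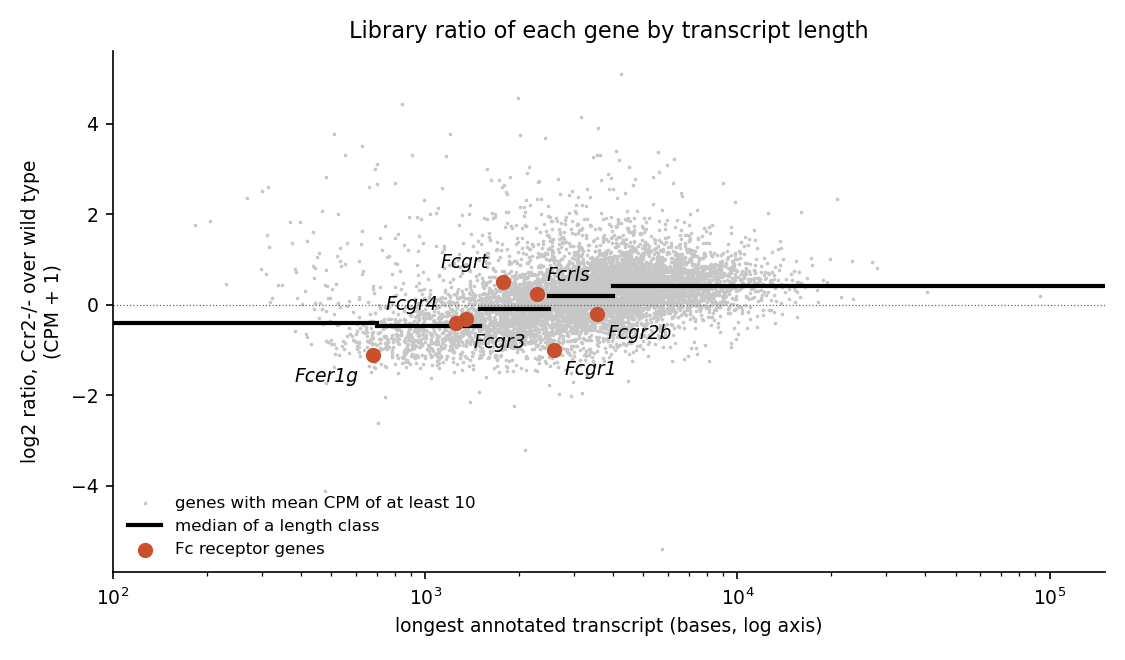
Log2 ratio of knockout over wild type (CPM + 1) against the longest annotated transcript in bases (log axis) for genes with a mean of at least 10 CPM (grey), with the median of each length class (black bars) and the Fc receptor genes (orange). Fcgr1 lies well below the bar of its class (by 1.20) and Fcer1g below its own, while Fcgr3 and Fcgr4 lie on the level of genes of like length.

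The libraries also differed in how many cells showed each receptor. With every cell thinned to 1000 UMIs (1 wild-type and 196 knockout cells were shallower and left out), a Fcer1g UMI was seen in 92.9% of 3015 wild-type cells (exact Clopper-Pearson 95% interval 92.0 to 93.8%) and in 69.8% of 2416 knockout cells (68.0 to 71.7%). Fcgr1 was seen in 16.8% (15.5 to 18.2%) and 8.53% (7.44 to 9.71%), Fcgr3 in 35.4% and 29.1%, Fcgr4 in 35.3% and 29.7%, and Fcgr2b in 25.5% and 20.8%. Fcgrt was seen in 8.06% (7.11 to 9.09%) and 11.1% (9.91 to 12.5%), and Fcrls in 6.27% and 6.25%. All of the IgG receptors and Fcer1g were thus seen in fewer knockout cells at equal depth, and Fcgrt in more. Without thinning, the shares were 99.5% and 84.7% for Fcer1g and 59.8% and 20.6% for Fcgr1, which includes the difference in depth.

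Cells with at least 3 UMIs of T cell, innate lymphoid or plasma cell markers, and at most 1 UMI over C1qa, C1qb, C1qc, Csf1r and Adgre1, served as background. There were 15 of these in the wild type (median 10779 UMIs before thinning) and 16 in the knockout (median 2024 UMIs). Fcer1g was seen in 33.3% (11.8 to 61.6%) and 25% (7.27 to 52.4%) of them, below the share in all cells of either library. Fcgr1, Fcgr4, Fcgrt and Fcrls were seen in 0 of 15 and 0 of 16, with upper interval limits of 21.8% and 20.6%. Fcgr2b was seen in 1 cell of each (6.67% and 6.25%) and Fcgr3 in 0 and 2 (12.5%, 1.55 to 38.3%). With so few cells, the shares of Fcgr1, Fcgrt, Fcrls and Fcgr2b in both libraries, and of Fcgr3 in the knockout, were not detectably above this background at 1000 UMIs, while those of Fcer1g and Fcgr4 in both, and of Fcgr3 in the wild type, were.

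Summed over cells, UMIs of the activating receptors together outnumbered those of the inhibitory one in both genotypes. The order of the genotypes in the inhibitory share differed between depth settings. Of the IgG receptor UMIs (Fcgr1, Fcgr3, Fcgr4 and Fcgr2b) at 1000 UMIs per cell, Fcgr2b made up 22.5% in lane 1, 19.7% in lane 2 and 21.6% in the wild type as a whole (20.4 to 22.8%), and 23.1% (21.5 to 24.8%) in the knockout. That is 3.63 activating UMIs per inhibitory UMI in the wild type and 3.33 in the knockout. The intervals overlapped at this depth. Without thinning the shares were 20.1% (19.6 to 20.6%; lanes 20.9% and 18.4%) and 23.1% (22.1 to 24.0%), with intervals apart, and in cells with 2000 to 4000 UMIs they were 29.6% and 24.1%, the other way round. Fcgr1 made up 13.4% of the IgG receptor UMIs in the wild type and 8.47% in the knockout, and with Fcgr1 left out the inhibitory share was 24.9% and 25.3%. The receptors kept like proportions otherwise: Fcgr3 made up 31.7% and 33.3%, and Fcgr4 33.4% and 35.2%.

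What differed was the γ chain relative to the receptors that use it. There were 3.11 Fcer1g UMIs per activating receptor UMI in the wild type (3.06 and 3.22 in the lanes) and 1.75 in the knockout. In wild-type cells with 1500 to under 2500, 2500 to under 4000 and 4000 to under 8000 UMIs there were 3.52, 3.69 and 2.89. In knockout cells there were 1.57, 1.89 and 2.11, so the gap was smallest in the deepest of the 3 classes. At 8000 or more UMIs the ratio was 2.96 in the wild type and 3.79 in 19 knockout cells, the other way round. Fcer1g has a shorter transcript than the 3 receptors, so the length trend above moves with this ratio too, and its part was not tested.

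The inhibitory share varied with the UMIs of the cell within each library. In wild-type cells with 1500 to under 2500, 2500 to under 4000 and 4000 to under 8000 UMIs it was 29.3% (26.3 to 32.5%), 27.2% (25.3 to 29.2%) and 19.6% (18.9 to 20.4%), and in knockout cells 25.3% (23.1 to 27.6%), 23.0% (21.4 to 24.7%) and 20.8% (19.4 to 22.3%). Over these 3 classes shallower cells held the higher share in both libraries and in both lanes; the 19 knockout cells with 8000 or more UMIs were an exception, at 32.3% (22.9 to 42.7%). The wild type was above the knockout in the class of 2500 to under 4000 UMIs, and the intervals overlapped in the other 2. Macrophage complement transcripts moved with depth as well, with C1qa, C1qb and C1qc summed at 7486, 8383 and 12669 CPM over the 3 wild-type classes, and 7635, 8465 and 9289 CPM in the knockout. Cells with a Ccr2 UMI, counted without thinning, made up 32.5, 31.3 and 37.0% of the 3 wild-type classes. They made up 61.6% of wild-type cells with 8000 or more UMIs. The part of complement transcripts and of Ccr2-positive cells in the depth trend was not tested.

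**Figure D3:**
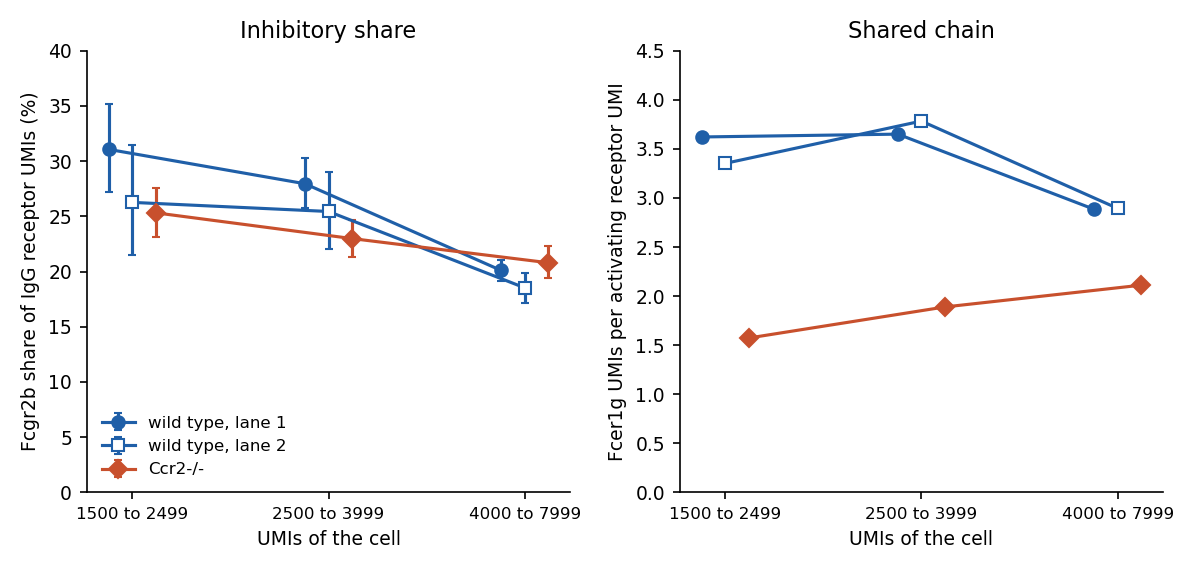
Left, Fcgr2b share of IgG receptor UMIs in percent with exact 95% intervals; right, Fcer1g UMIs per UMI of Fcgr1, Fcgr3 and Fcgr4, drawn without intervals, both by the UMIs of the cell, for the wild-type lanes (blue) and the knockout (orange). The inhibitory share is higher in shallower cells in every series, and the wild-type lanes stay above the knockout in the right panel in all 3 classes (3.69 against 1.89 for the wild type as a whole at 2500 to under 4000 UMIs).

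Cell by cell, Fcgr2b was seen somewhat more often beside an activating receptor than without one, but at equal depth the intervals overlapped. At 1000 UMIs, activating receptors alone were seen in 46.6% of cells in the wild type and 41.1% in the knockout, Fcgr2b alone in 8.99% and 8.77%, both kinds in 16.6% and 12.0%, and neither in 27.9% and 38.0%. Of cells with an activating UMI, 26.2% (24.3 to 28.3%) in the wild type had a Fcgr2b UMI, against 24.4% (21.9 to 27.0%) of cells without one. The same shares in the knockout were 22.6% and 18.7%, and the intervals overlapped in both libraries at this depth. Without thinning, where deeper cells show more of every gene, the shares were 74.7% (73.1 to 76.3%) and 53.1% (45.5 to 60.7%) in the wild type and 45.6% (43.4 to 47.8%) and 28.8% (25.3 to 32.6%) in the knockout. At 2000 UMIs, Fcgr2b was seen in 36.5, 40.4, 42.8 and 45.6% of wild-type cells in which 0, 1, 2 and 3 of the activating receptor genes were seen, and in 34.9, 34.7, 38.5 and 40.8% of knockout cells. All 3 activating receptor genes were seen in 10.6% (9.53 to 11.8%) of cells in the wild type and in 4.76% (3.77 to 5.93%) in the knockout. Among cells with at least 5 IgG receptor UMIs (602 wild-type and 165 knockout cells), the median inhibitory share per cell was 20% in both, and 32.4% and 29.1% of these cells held no Fcgr2b UMI.

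Across cells at 2000 UMIs, the members were only weakly correlated, with means over both libraries of Pearson's r on log(1 + UMI) values no higher than 0.16 (Fcgr4 with Fcer1g). Fcgr2b and the activating receptors had r of 0.02 with Fcgr1, 0.04 with Fcgr3 and 0.05 with Fcgr4. These correlations are over 2868 wild-type and 1595 knockout cells of 1 library each, are limited by sparse counts, and are given as a description. Among the 2213 genes with at least 50 CPM in both libraries, those most like Fcer1g were Apoe (0.44), Cd74 (0.42), C1qb (0.39), Tmsb4x (0.38) and Tyrobp (0.37). Those most like Fcrls were Cst3 (0.28), Pf4 (0.27), Dab2 (0.26), Ccl12 (0.22) and Trf (0.22). Fcgr3 was nearest to Apoe (0.25) and Cd74 (0.21), Fcgr4 to C1qa (0.20) and C1qc (0.19), and Fcgr2b to Mrc1 alone (0.15), while no gene reached the minimum of 0.15 with Fcgr1 or Fcgrt.

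Within the wild type, the members were followed over classes of Ccr2 UMIs, which order the cells from few to many transcripts of the monocyte receptor. Every cell was thinned to 3000 UMIs (524 of 3016 wild-type cells were shallower), which left 1597 cells with 0 Ccr2 UMIs, 333 with 1, 348 with 2 to 3 and 214 with 4 or more. Fcgr4 was lower in all Ccr2-positive classes, with 1.76 UMIs per cell (1.70 to 1.83), 1.26 (1.14 to 1.39), 1.12 (1.01 to 1.23) and 1.10 (0.96 to 1.25). Fcgr3 had 1.57, 1.19, 1.11 and 1.29 UMIs per cell. Fcgr1 had 0.63, 0.52, 0.51 and 0.61 UMIs per cell, with no difference beyond counting error between the first class and the last at this depth. With cells thinned to 5000 UMIs instead, the first class held 1011 cells and the last 349. There Fcgr1 had 1.21 (1.15 to 1.28) and 0.93 (0.83 to 1.04) UMIs per cell, with intervals apart.

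At 3000 UMIs, Fcgr2b was level over the classes, with 0.91 (0.86 to 0.96), 0.89 (0.79 to 0.996), 0.89 (0.79 to 0.99) and 0.93 (0.80 to 1.06) UMIs per cell. The inhibitory share of IgG receptor UMIs was accordingly 18.7% (17.8 to 19.6%) in cells with 0 Ccr2 UMIs, and 23.1% (20.8 to 25.5%), 24.4% (22.1 to 26.9%) and 23.6% (20.8 to 26.6%) in the others. In lane 1 it was 19.6% (18.5 to 20.7%), 22.9% (20.2 to 25.8%), 24.3% (21.6 to 27.2%) and 24.0% (20.7 to 27.4%), and in lane 2 16.9% (15.5 to 18.4%), 23.4% (19.2 to 28.0%), 24.7% (20.2 to 29.7%) and 22.4% (16.8 to 28.9%). The class of 0 was the lowest in both lanes, but its interval overlapped those of 1 and of 4 or more UMIs in lane 1 and that of 4 or more in lane 2. Within cells of 4000 to under 8000 UMIs the first and last classes held 18.5% (17.3 to 19.7%) and 22.7% (18.4 to 27.5%), and within cells of 8000 or more UMIs 16.7% (15.3 to 18.2%) and 22.2% (17.8 to 27.1%), with overlapping intervals in both.

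Fcer1g had 11.5, 9.57, 8.93 and 9.05 UMIs per cell over the classes, Fcgrt 0.32, 0.24, 0.19 and 0.22, and Fcrls 0.23, 0.17, 0.18 and 0.14. All 3 were highest in cells with 0 Ccr2 UMIs in both lanes. Between the last class and the first, 0 of 7 members differed 2-fold, where 2.13% of 7011 genes were at least 2-fold higher and 5.63% at least 2-fold lower. In lane 2 alone, with 46 cells in the last class, Fcgr4 was past that line at a log2 ratio of -1.02, against -0.57 in lane 1.

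Other markers moved along with the classes. The 8 macrophage markers summed to 50.5, 39.4, 35.6 and 35.0 UMIs per cell, the 7 monocyte markers other than Ccr2 to 0.57, 1.23, 1.97 and 2.63, and the 8 dendritic cell markers to 0.59, 0.70, 0.77 and 0.90. Of the dendritic cell genes, Cd209a had 0.08, 0.15, 0.16 and 0.24 UMIs per cell, and Flt3 0.0031, 0.0060, 0.017 and 0.0093. In the macrophage-marker cells with few UMIs of other lineages, the inhibitory share was 19.1% (18.2 to 20.1%), 25.7% (23.2 to 28.4%), 24.6% (22.1 to 27.2%) and 20.2% (17.3 to 23.4%), so that the last class no longer stood apart from the first while the middle classes did. At 1000 UMIs the last class held only 28 cells and 5 Fcgr2b UMIs, and the difference between last and first had the opposite sign, at -5.99 percentage points. The part of these markers in the differences between classes was not tested.

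**Figure D4:**
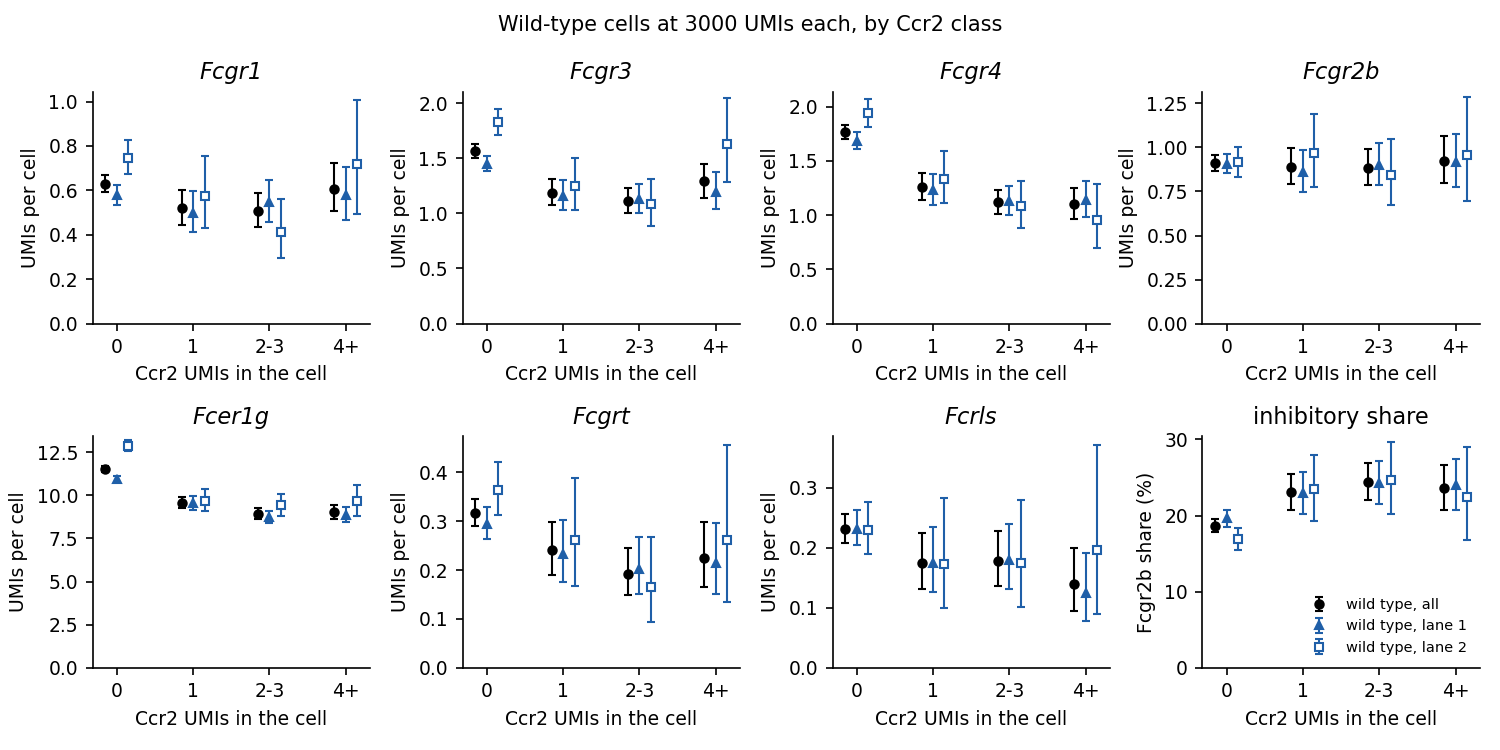
Mean UMIs per cell of each member, and the Fcgr2b share of IgG receptor UMIs in percent, by Ccr2 UMIs in wild-type cells thinned to 3000 UMIs, for all cells (black) and each lane (blue), with exact 95% intervals. Fcgr4 and Fcer1g are highest in the class of 0 Ccr2 UMIs and Fcgr2b is level, and the inhibitory share is lowest in that class (18.7%).

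The members also differed between cell states defined by other genes. States were read from cells thinned to 2000 UMIs (148 wild-type and 1017 knockout cells were shallower), and each was set against all other cells of its library. Cells in an interferon response, in which at least 3 of Rsad2, Ifit1, Ifit2, Ifit3, Mx1 and Isg15 were seen, numbered 89 in the wild type and 76 in the knockout. Fcgr1 had 0.72 UMIs per cell in them and 0.36 in the other wild-type cells, a ratio of 2.01 (1.54 to 2.60), and 0.38 and 0.20 in the knockout, a ratio of 1.90 (1.25 to 2.79). Fcgr4 had ratios of 1.74 (1.47 to 2.05) and 1.48 (1.16 to 1.85). Fcgr3 had ratios of 1.003 and 1.10 and Fcgr2b of 0.81 and 1.003, with intervals that held 1.

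In the interferon state 1 of 7 members (Fcgr1) was at least 2-fold higher in the wild type, where 7.38% of genes were, and 0 of 7 in the knockout, where 8.15% were. At least 2-fold lower were 0 of 7 members in the wild type (8.83% of genes) and 1 of 7, Fcrls from 5 UMIs, in the knockout (10.3% of genes). The ratio of Fcgr1 was above that of 92.7% of genes in the wild type and 90.5% in the knockout, and the ratio of Fcgr4 above that of 89.0% and 80.3%. Both lanes showed both genes higher, at 1.75 and 2.72 for Fcgr1 and 1.75 and 1.73 for Fcgr4. The inhibitory share in interferon-responding cells was 12.9% (9.56 to 17.0%) in the wild type, against 21.3% in the others, and 18.3% (13.4 to 24.2%) in the knockout, against 23.3%. Fibroblast markers summed to 2.78 UMIs per cell in the knockout interferon cells and 0.57 over all knockout cells, and to 0.02 and 0.09 in the wild type, and their part was not tested.

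Cells with a Cd163 UMI, a haemoglobin scavenger receptor of tissue-resident macrophages, leaned the other way. They numbered 179 (6.24%) in the wild type and 284 (17.8%) in the knockout. Fcrls was 4.38 times (3.39 to 5.61) and 4.65 times (3.59 to 6.04) as high in them as in other cells, above the ratios of 99.6% and 99.8% of genes. Fcgrt was 2.50 times (1.94 to 3.20) and 1.67 times (1.34 to 2.07) as high, Fcgr2b 1.73 times (1.48 to 2.02) and 1.54 times (1.31 to 1.81), and Fcgr3 1.41 and 1.20 times. Fcgr4 was not higher, with ratios of 0.89 and 0.84, and neither was Fcgr1, with 0.92 and 1.07. In all, 2 of 7 members were at least 2-fold higher in Cd163-positive cells of the wild type (5.11% of genes) and 1 of 7 in the knockout (4.33% of genes), and 0 of 7 were at least 2-fold lower in either (4.72% and 4.58% of genes). The inhibitory share was 28.6% (25.1 to 32.4%) and 29.1% (25.8 to 32.6%) in Cd163-positive cells, against 20.3% and 21.5% in the others.

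Fcrls and Fcgrt were also compared between the libraries with Cd163-positive and Cd163-negative cells apart. Among Cd163-negative cells Fcrls had 0.11 UMIs per cell in the wild type and 0.09 in the knockout, a ratio of 0.85 (0.68 to 1.06), and among Cd163-positive cells 0.47 and 0.43, a ratio of 0.91 (0.68 to 1.21). Over all cells at this depth the ratio was 1.16 (0.99 to 1.37). All 3 intervals held 1, and the part of the larger Cd163-positive share of the knockout in the Fcrls ratio was not tested. Fcgrt had a ratio of 1.43 (1.24 to 1.65) among Cd163-negative cells and 0.95 (0.71 to 1.29) among Cd163-positive cells. Fcer1g was lower in the knockout in all the states set side by side, by ratios from 0.37 in Cd163-positive cells to 0.48 in interferon-responding cells, and 0.49 (0.47 to 0.52) in cells outside them. Fcgr1 had ratios of 0.50 to 0.65 in these states except the perivascular-like cells described next, where it was 0.87 with an interval of 0.39 to 1.99.

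Perivascular-like cells, in which at least 2 of Folr2, Lyve1, Cbr2 and F13a1 were seen, numbered 43 and 57. Fcrls was 9.27 times (6.65 to 12.6) as high in them as in other wild-type cells and 4.28 times (2.87 to 6.20) in the knockout. Fcgr2b had 1.42 UMIs per cell in the wild-type cells of this state and 0.47 in the knockout cells, so it was 2.40 times (1.83 to 3.10) as high as in other cells in the wild type, and 0.92 times (0.60 to 1.35) in the knockout. The wild-type lanes gave 2.57 and 1.82 for Fcgr2b. Fcgrt was 2.97 and 1.79 times as high. At least 2-fold higher were 3 of 7 members in the wild type (16.9% of genes) and 1 of 7 in the knockout (13.8% of genes), and 0 of 7 were at least 2-fold lower in either (12.8% and 11.7% of genes).

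Cells with Timd4, a phosphatidylserine receptor of long-lived resident macrophages, and cells with Cd4 but no Timd4, were alike in having little Fcrls and more Fcgr4. In Timd4-positive cells (215 and 427) Fcrls had ratios of 0.59 (0.34 to 0.96) and 0.51 (0.35 to 0.73), and in Cd4-positive Timd4-negative cells (427 and 357) 0.56 (0.38 to 0.80) and 0.49 (0.32 to 0.73). Fcgr4 had ratios of 1.35 (1.19 to 1.53) and 1.04 (0.91 to 1.18) in Timd4-positive cells, and 1.29 (1.17 to 1.42) and 1.23 (1.08 to 1.40) in Cd4-positive Timd4-negative cells. Fcgr4 was thus higher in both states in the wild type, and beyond counting error only in the second in the knockout. No member was at least 2-fold higher or lower in the wild type (0 of 7 in either state, where 2.73% and 1.04% of genes were higher and 2.57% and 1.37% lower). In the knockout 0 of 7 were at least 2-fold higher in either state (0.799% and 1.09% of genes), and 0 of 7 and 1 of 7 (Fcrls) were at least 2-fold lower (2.15% and 2.08% of genes).

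Some states held enough cells in the wild type only, and Fcgr3, Fcgr4 and Fcer1g were lower in each of the 3. In 236 cells with both Ccr2 and Plac8, a monocyte pair, the ratios were 0.52 (0.43 to 0.62) for Fcgr4, 0.69 (0.58 to 0.81) for Fcgr3, 0.72 (0.68 to 0.76) for Fcer1g and 0.44 (0.24 to 0.74) for Fcrls, while Fcgr1 (0.95) and Fcgr2b (0.88) had intervals that held 1. Of the 7 members, 0 were at least 2-fold higher (2.33% of genes) and 1, Fcrls, at least 2-fold lower (6.21% of genes). In the knockout 6 cells fell in this state, too few for values. In 644 cells with Ccr2, no Plac8 and at least 3 UMIs of C1qa, C1qb and C1qc, Fcgr4 had a ratio of 0.77 (0.70 to 0.85), Fcgr1 of 0.83 (0.71 to 0.96), Fcgr3 of 0.83 (0.76 to 0.92), Fcer1g of 0.86 (0.83 to 0.89) and Fcgr2b of 1.03 (0.92 to 1.16), and 0 of 7 members were 2-fold higher or lower (0.339% and 1.44% of genes). In 57 cycling wild-type cells, with at least 3 of Top2a, Mki67, Birc5, Cdk1, Stmn1 and Cenpf, Fcgr3 had a ratio of 0.49 (0.32 to 0.72), Fcgr4 of 0.53 (0.35 to 0.75) and Fcer1g of 0.66 (0.58 to 0.75). Fcrls was higher in the cycling cells, at 2.51 times (1.47 to 4.02) from 18 UMIs. Past 2-fold were 1 of 7 members higher (Fcrls; 17.6% of genes) and 1 of 7 lower (Fcgr3; 9.89% of genes).

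**Figure D5:**
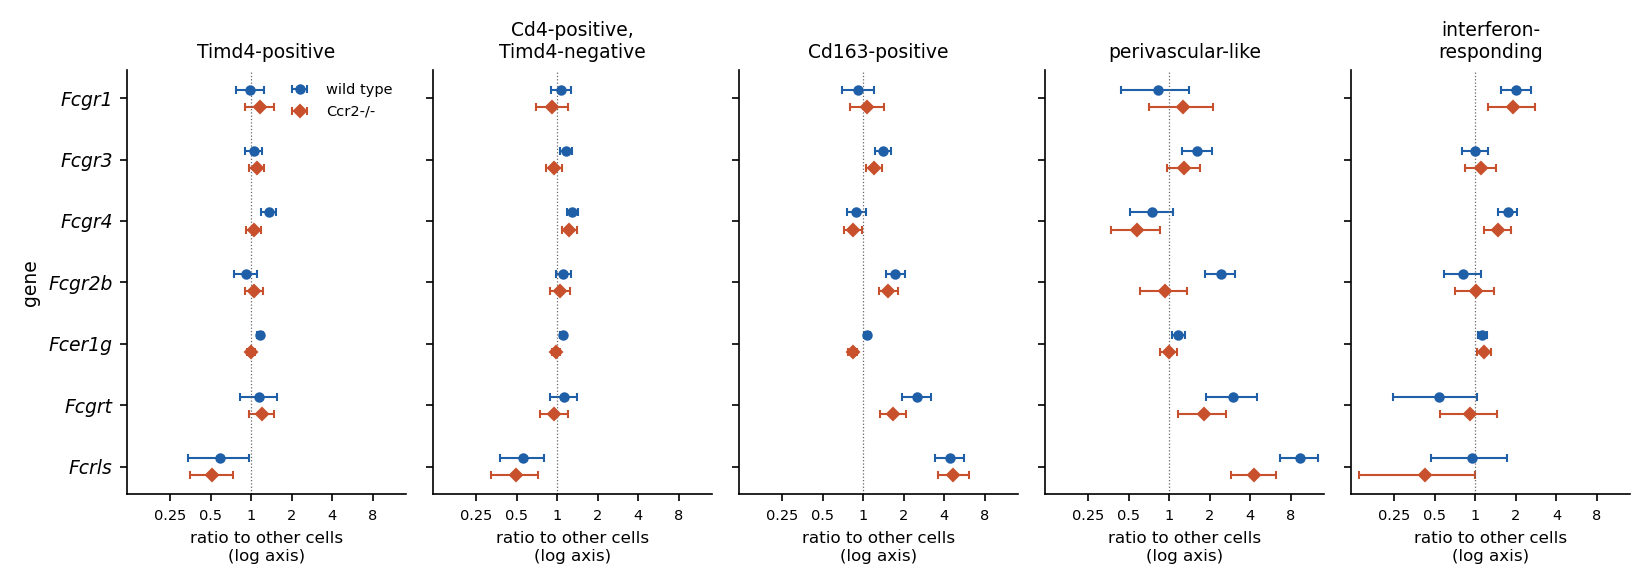
Ratio of each member's mean UMIs per cell in a cell state to that in all other cells of the same library (log axis), for wild type (blue) and knockout (orange), with exact 95% intervals, at 2000 UMIs per cell. Fcgr1 and Fcgr4 lie to the right of 1 in interferon-responding cells, and Fcrls, Fcgrt and Fcgr2b in Cd163-positive cells, in both genotypes (Fcrls at 4.38 and 4.65).

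Of the genes that act behind the receptors, the inhibitory phosphatase Inpp5d differed most among those named. Of 20 genes of activating Fc receptor signalling, 19 reached 10 CPM, of which 11 were higher and 8 lower in the knockout and 0 were past 2-fold, where 37.7% of all genes were lower and 9.04% and 3.12% were at least 2-fold higher and lower. Their median was 0.18 (log2), as over all genes. Syk, the kinase recruited by the γ chain, stood at 140 and 192 CPM (log2 ratio 0.45), and Lyn, the Src-family kinase that phosphorylates it, at 333 and 468 CPM (0.49). Of 15 genes that restrain the signal, 13 reached 10 CPM, of which 8 were higher and 5 lower, with a median of 0.06 and 0 past 2-fold. Inpp5d, the phosphatase recruited by FcγRIIb, stood at 134 and 125 CPM in the lanes and at 264 CPM in the knockout (log2 ratio 0.999, just inside 2-fold), and Ptpn6 (SHP-1) at 249 and 246 CPM (-0.02). Relative to genes of like length these ratios were 0.03 for Syk, 0.29 for Lyn, 0.58 for Inpp5d and 0.07 for Ptpn6, whose sign differed from the plain ratio.

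Receptors for other antibody classes were low or absent. Of 13 other immunoglobulin-binding genes, only B2m reached a mean of 10 CPM over both libraries. Pigr stood at 5.13 CPM in the wild type and 12.4 CPM in the knockout, and Trim21 at 7.35 and 10.5 CPM. Fcer1a and Ms4a2, the IgE-binding and β chains that join Fcer1g in mast cells, had 0 UMIs in both libraries, as did Fcamr and Fcrl6. Of the 8 mast cell or basophil markers 7 were at 0 in both libraries. The neutrophil genes S100a8, S100a9 and Ly6g were at 0 in both libraries, while the neutrophil list as a whole summed to 404 and 605 CPM. Most of these sums came from 1 gene of the list, Mmp9, at 369 and 559 CPM. The B cell list, which matters for Fcgr2b, summed to 73.8 and 78.0 CPM, and the NK cell list, which matters for Fcgr3 and Fcer1g, to 8.27 and 6.88 CPM. The plasma cell list was far higher, at 1718 CPM in the wild type and 1836 CPM in the knockout. Its part in the Fcgr2b levels was not tested.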

How the data were processed

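Per the labels, droplet 3′ v2 libraries were made from sorted macrophages, 1 library per genotype. The deposited files hold raw UMI counts per gene and cell, made by the authors with Cell Ranger 3.0.1 on mm10, per the submitters' processing notes; the annotation and the rule for calling cells are not given in the sources used here. As deposited, the wild type had 3054 cells and 20766579 UMIs (lanes read from the barcode suffix, per the labels), and the knockout had 2774 cells and 7506405 UMIs. Kept were cells in which 200 or more genes were seen and mitochondrial UMIs made up no more than 10%. Counts were summed and scaled to 1000000, and ratios taken as log2 with a pseudocount of 1 CPM over genes with a mean of at least 10 CPM. Cells were thinned without replacement to 1000, 2000, 3000 or 5000 UMIs. With 1 library per genotype no test was run; cells and lanes are not replicates. Doublets were not called; an alternative left out the 5% of cells of each lane with the most UMIs. The scripts were tested on simulated data.

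The members, the gene lists and the cell states were chosen with earlier results of these data known. All 7 members are named; of the signalling lists, genes past 2-fold and Syk, Lyn, Inpp5d, Ptpn6, Tyrobp and B2m; of genes most like a member, up to 5 with a mean correlation of at least 0.15. The motifs were chosen after the promoter sequences and state values had been seen. Of 184 list genes, 8 were not found by symbol and are not analysed here. Transcript lengths and positions came from GENCODE (GRCm38), for 99.9% of the genes compared. Alternatives added after seeing the data were the ratio relative to genes of like length, every cell thinned to 1000 UMIs, and the Ccr2 classes within 2 depth ranges. Python 3.11.15, numpy 2.4.6, scipy 1.17.1, pandas 2.3.3 and matplotlib 3.10.9 were used.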

Additional observations from a re-analysis of the deposited data

Results flagged for a closer look

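Of 35 pairs of a cell state and a member measured in both genotypes, 22 had the same direction against the other cells in both. In 1 pair the directions were opposite with both intervals clear of 1. How often other genes do so was not computed. That pair was Fcer1g in Cd163-positive cells, which was 1.07 times (1.01 to 1.13) as high as in other cells in the wild type and 0.835 times (0.774 to 0.901) in the knockout. The wild-type lanes split, at 1.13 and 0.92, so the wild-type direction was that of lane 1. The difference between the genotypes was not tested.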

How the results depend on the processing

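The median log2 ratio of the 7 members (-0.32) was -0.50 with median-of-ratios size factors, -0.21 against lane 1, -0.55 against lane 2, -0.18 in cells with 2000 to 4000 UMIs, -0.51 without cells with a Ccr2 or Plac8 UMI, and 0.060 relative to genes of like length. The wild-type inhibitory share (21.6%) was 29.6% in cells with 2000 to 4000 UMIs, 20.1% without thinning, 19.7% in lane 2 and 24.9% with Fcgr1 left out; the knockout share (23.1%) was 25.3% with Fcgr1 left out. The difference between cells with 4 or more and 0 Ccr2 UMIs (4.91 percentage points) was 1.11 in cells with macrophage markers and no other signal, and -5.99 at 1000 UMIs, where few cells were left. The cause of these shifts was not tested. Over 12 alternatives the log2 ratio of Fcgr1 ran from -1.20 to -0.32. No paired analysis was possible because each genotype has 1 library and no test was run. Leaving out a replicate would leave a genotype empty.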
